A study of Mus musculus with 6 samples.

Results

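Mitochondrial ribosomal proteins were followed in mouse T cells that had been activated for 48 h with or without urolithin A. They were taken by name and gene class, as the protein-coding genes of the deposited table whose symbol begins with Mrpl (large subunit) or Mrps (small subunit). This gave 77 of the 18828 genes in the table, 48 of them Mrpl and 29 Mrps. Single members were taken by name, but the family as a whole was selected on its fold changes between these same libraries, so its counts and medians are given as a description and support nothing further. The T cells came from the spleens of wild-type FVB mice, an inbred strain, and were stimulated with bead-bound antibodies against CD3 and CD28. They received 50 µM urolithin A, a gut bacterial metabolite of plant ellagitannins known to induce mitophagy, or its solvent DMSO, at the time of stimulation. There were 3 libraries per group (a, b and c), each made from 200 ng of RNA; whether they stem from different mice or cultures is not stated.

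Mitochondria keep a ribosome of their own, which translates the few proteins encoded in mitochondrial DNA, all of them core subunits of the oxidative phosphorylation complexes. Its RNA comes from the mitochondrial genome, while all of its proteins are encoded in the nucleus, made in the cytosol and imported. The family holds homologues of bacterial ribosomal proteins and proteins found only in mitochondria, and loss of single members in people causes combined respiratory chain defects. Activated T cells are known to raise mitochondrial mass and translation before they divide.

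Transcripts of the mitochondrial ribosome were lower with urolithin A by a modest amount, in both subunits. Of the 77 members, all of which passed the filter on low counts, 31 fell and 1 rose at an adjusted p under 0.05 in a limma voom fit over all genes, and 45 did not pass. Over the 14444 genes tested, 33.7% were called, 16.0% lower and 17.7% higher. The median log2 fold change of the members was -0.22, a difference of -13.9%, beside 0.01 for all genes tested. No member reached a 2-fold change, and the log2 fold changes ran from -0.73 to 0.43 with standard errors of 0.07 to 0.25. Of the 9941 genes with a mean of at least 5 CPM (counts per 1000000 after scaling), a level that 75 of the 77 members reached, 20.3% were called lower, and their median was -0.02. The fitted value was below 0 for 65 members and above 0 for 12.

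How firmly single members were called depended on the libraries. The number of members called lower lay between 13 (without DMSO library b) and 36 (without urolithin A library c) when 1 library was left out. It was 20 without DMSO library c and 19 without urolithin A library a. Scaled to total counts alone, 4 members were called lower, and of all genes called 70.6% were then higher, against 52.6% with the main scaling. In DMSO library b 17.6% of the counts came from the ribosomal RNA gene Rn18s, against 3.97% in urolithin A library a and at most 0.887% elsewhere. With ribosomal RNA genes set aside, scaling to total counts called 27 members lower. With DMSO b and urolithin A a both left out, which was decided once the data had been seen, 6 members were called lower, at a median of -0.18. The median of the family was below 0 in each of the 17 alternative fits, and of the 32 called members 28 lost their call in at least 1 of them.

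The summed level of the 77 transcripts was 3981, 4072 and 4014 CPM in DMSO libraries a, b and c. With urolithin A it was 3427, 3482 and 3725 CPM. The groups did not overlap, and the mean was 11.9% below that of the DMSO libraries. In bulk RNA, fewer cells of a kind and less RNA per cell cannot be told apart. Total counts per library ran from 12738059 to 19081219. All 8 T cell markers were measured, at a sum of 1830 to 1919 CPM with DMSO and 1860 to 2067 CPM under urolithin A, and 1 of them, Cd4, was called higher in the main fit but not without DMSO library b (adjusted p = 0.0651 in limma) or c (adjusted p = 0.0550). Of 6 B cell markers 3 were called higher, beside 17.7% of all genes tested. The B cell sums were 162 to 179 CPM and 206 to 249 CPM, nearly all of it Ighm (149 to 166 and 189 to 231 CPM). The other B cell markers reached at most 9.49 CPM. Of the calls, that of Cd79b was lost without DMSO library b (adjusted p = 0.0922 in limma) or c (0.0676). Of 6 macrophage markers, 5 were in the table, at 6.19 to 7.72 and 12.3 to 14.1 CPM in sum. Mpeg1, which encodes a pore-forming protein of phagocytes, rose from 2.36 ± 0.0730 to 7.55 ± 0.690 CPM (SD, n = 3; log2 fold change 1.65 ± 0.18, adjusted p = 8.42e-06 in limma) and made up most of the difference in the sum. Cd68 did not pass, at 4.20 ± 0.809 and 5.35 ± 0.238 CPM. Lyz2, Csf1r and Adgre1 were under 1 CPM in each library, and Adgre1 was at 0.319 ± 0.0289 and 0.124 ± 0.0633 CPM (SD, n = 3). Erythroid markers summed to 2.02 to 2.50 and 3.63 to 4.14 CPM, and stromal markers, nearly all of it Pecam1, to 73.0 to 73.8 and 102 to 130 CPM. The other stromal markers did not rise with Pecam1. Pdgfrb did not pass, at 2.59 ± 0.217 and 2.84 ± 0.127 CPM, and Col1a1 was at 0.580 ± 0.221 and 0.415 ± 0.296 CPM (SD, n = 3). NK markers summed to at most 2.49 CPM, dendritic markers to at most 0.567 CPM and neutrophil markers to at most 0.212 CPM, with S100a9 at 0 in all 6 libraries. The part of these cells in the results was not tested.

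**Figure D1:**
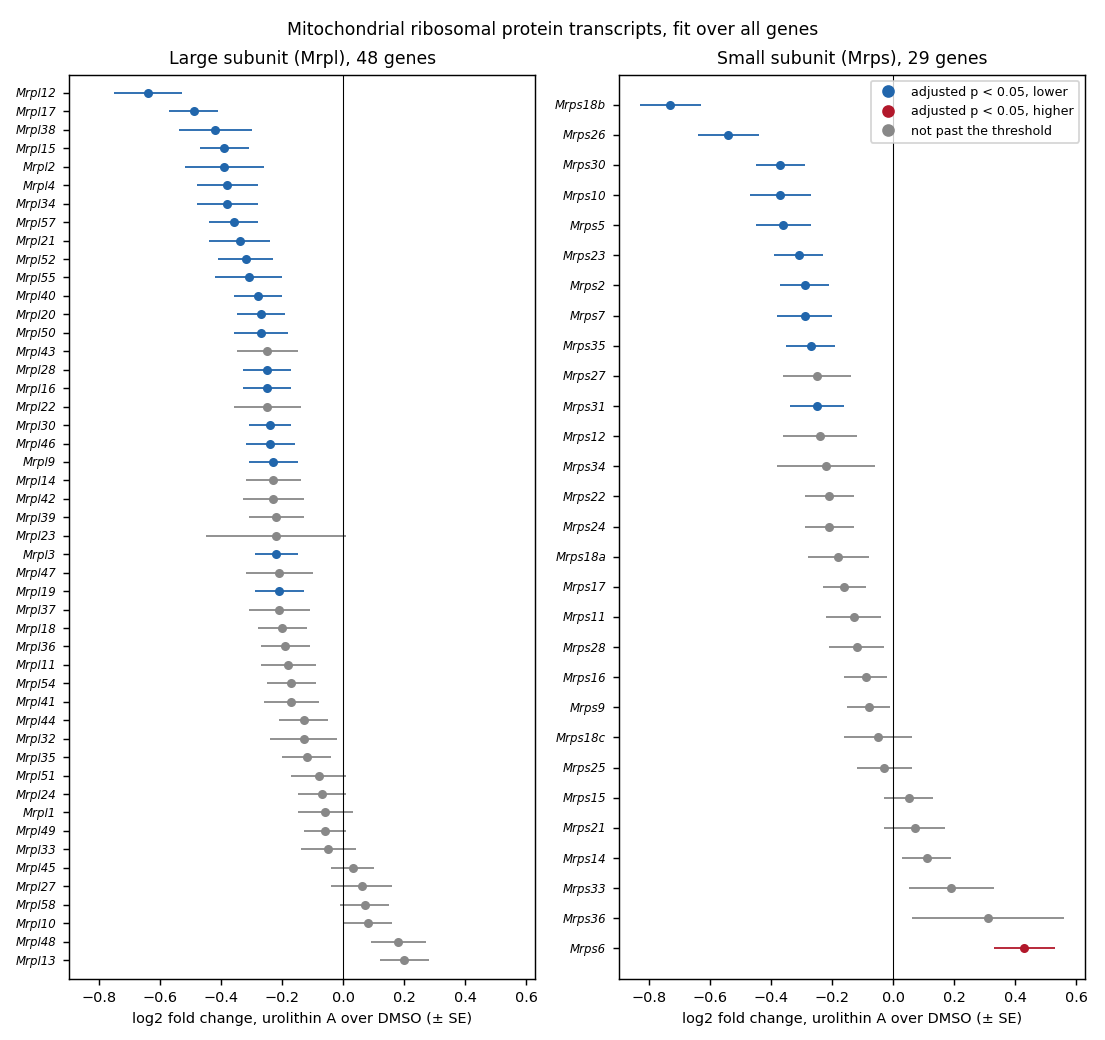
Log2 fold change with urolithin A over DMSO (x axis, ± SE) for each Mrpl gene (left) and Mrps gene (right), 3 libraries per group, in the order of their values. Of the 48 large subunit genes 21 are marked as lower and 0 as higher, and of the 29 small subunit genes 10 as lower and 1, Mrps6, as higher.

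The large and the small subunit gave close medians. Of the 48 Mrpl genes 21 (43.8%) fell and none rose (1 was higher at an unadjusted p under 0.05, 0 in either limma trend fit), and the median log2 fold change was -0.22, with a range of -0.64 to 0.20. Of the 29 Mrps genes 10 (34.5%) fell and 1 rose, with a median of -0.21 and a range of -0.73 to 0.43. The ratio of the summed CPM of the Mrpl genes to that of the Mrps genes was 2.11, 2.08 and 2.08 in the DMSO libraries and 2.06, 2.08 and 2.09 in the urolithin A libraries. The ranges overlapped, so no shift between the subunits was seen at this level. The letter of a symbol does not always give the place of the protein: in the mammalian ribosome the proteins of Mrps18a and Mrps30 lie in the large subunit, and Mrps36 encodes a part of the oxoglutarate dehydrogenase complex. Placed by structure, with 5 ribosomal proteins under other names added, 23 of 51 large subunit genes and 12 of 30 small subunit genes were called lower, with a median of -0.22 in each.

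Calls came from genes with and without a bacterial counterpart. The classes below hold 81 genes, the members and the 5 ribosomal proteins with other names, without Mrps36, and so are not a split of the 77 members. Of the 46 genes for homologues of bacterial ribosomal proteins, 19 fell and 1 rose, with a median log2 fold change of -0.21. Of the 35 genes classed as mitochondria-specific, 16 fell and none rose (0 also at an unadjusted p and in both limma trend fits), with a median of -0.24. Mrps18a and Mrps18b were put in this class, although both are related to Mrps18c, which was classed with the bacterial homologues. Split by subunit as well, 15 of 30 bacterial-type large subunit genes were called lower, and 4 of 16 bacterial-type small subunit genes. Among the mitochondria-specific genes the numbers were 8 of 21 in the large and 8 of 14 in the small subunit. The medians of these 4 classes were -0.22, -0.12, -0.22 and -0.26. Differences between the classes were not tested.

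The steepest fall was that of Mrps18b, a protein of the small subunit classed here as mitochondria-specific. It was at 26.6, 23.2 and 27.2 CPM in the DMSO libraries and at 15.7, 14.7 and 16.1 CPM under urolithin A. Every urolithin A library lay below every DMSO library. The log2 fold change was -0.73 ± 0.10 (SE), so the level fell by 39.7%, with a limma adjusted p of 9.35e-05. In the coordinates of the deposited table Mrps18b (ENSMUSG00000024436) lay on chromosome 17 from 36221271 to 36227281 on the minus strand.

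Mrps18b belongs to a trio of related genes, and the other members of it did not pass. Mrps18a, whose protein lies in the large subunit, was at 43.9, 45.4 and 43.7 CPM with DMSO and at 38.0, 35.1 and 45.4 CPM under urolithin A. The groups overlapped through urolithin A library c, and the log2 fold change of -0.18 ± 0.10 did not pass (adjusted p = 0.161 in limma). Mrps18c, the member of the trio closest to the bacterial protein, was at 31.6, 31.1 and 35.0 CPM with DMSO and at 27.1, 36.1 and 32.1 CPM under urolithin A. Its groups overlapped fully, at a log2 fold change of -0.05 ± 0.11 (adjusted p = 0.749 in limma). Differences between the trio's fold changes were not tested.

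Mrpl12 had the steepest fall of the large subunit. Its protein forms the flexible stalk that recruits translation factors and is also known to bind the mitochondrial RNA polymerase. The level of Mrpl12 was 59.4, 64.0 and 50.7 CPM in the DMSO libraries and 36.5, 32.3 and 43.6 CPM in the urolithin A libraries. The groups lay apart, with a log2 fold change of -0.64 ± 0.11 and a limma adjusted p of 7.00e-04. Mrpl10, which anchors the stalk, was at 69.7, 68.4 and 64.8 CPM with DMSO and at 73.8, 65.8 and 75.1 CPM under urolithin A. Here the groups overlapped (log2 fold change 0.08 ± 0.08, adjusted p = 0.475 in limma). Mrpl11, at the base of the stalk, was at 55.8, 60.2 and 57.1 CPM with DMSO and at 46.2, 48.4 and 59.5 CPM under urolithin A, so that library c lay within the DMSO range (log2 fold change -0.18 ± 0.09, adjusted p = 0.153 in limma).

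Mrps26 and Mrpl17 completed the members called lower in the main fit and in all 17 alternatives, with Mrps18b and Mrpl12. Mrps26, a mitochondria-specific protein of the small subunit, was at 71.9, 70.3 and 63.7 CPM with DMSO and at 52.3, 40.3 and 49.2 CPM under urolithin A (log2 fold change -0.54 ± 0.10, adjusted p = 6.63e-04 in limma). Mrpl17, a homologue of a bacterial large subunit protein, was at 56.1, 57.5 and 56.8 CPM with DMSO and at 41.0, 37.5 and 43.2 CPM under urolithin A (log2 fold change -0.49 ± 0.08, adjusted p = 3.32e-04 in limma). In both genes urolithin A library b was the lowest, and the groups lay apart. Mrpl15, also of bacterial type, had the tightest DMSO values of these genes, at 88.7, 88.7 and 88.9 CPM, and stood at 61.4, 70.1 and 73.2 CPM under urolithin A (log2 fold change -0.39 ± 0.08, adjusted p = 0.00185 in limma).

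**Figure D2:**
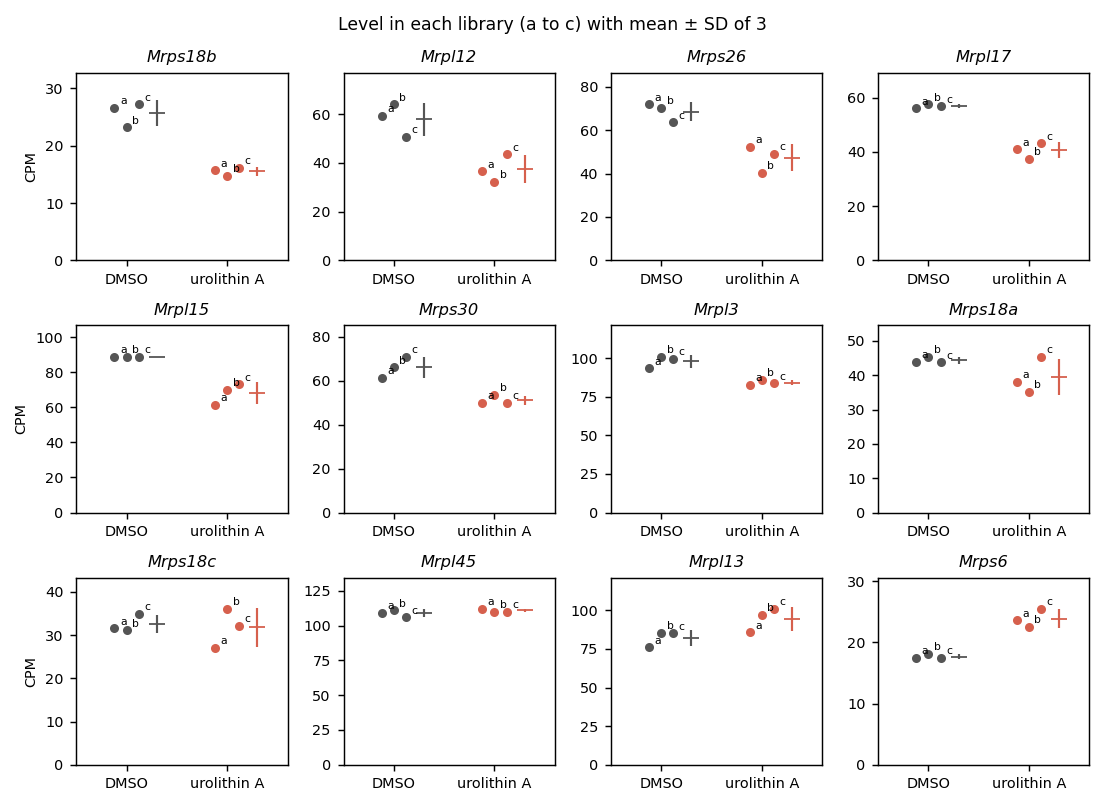
CPM of 12 members in each library (points, lettered a to c) with the mean ± SD of 3 libraries beside them, DMSO in grey and urolithin A in red, each axis from 0. The groups lie apart in Mrps18b, Mrpl12, Mrps26, Mrpl17, Mrpl15, Mrps30 and Mrpl3 (lower) and in Mrpl13 and Mrps6 (higher), and overlap in Mrps18a, Mrps18c and Mrpl45.

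The promoters of these members and of Mrps6, the member that rose, are shown because nuclear respiratory factors are known to bind close to the starts of many genes of the family. Each is the 250 bases before the RefSeq start on build GRCm38.p6, 5′ to 3′ in the direction of the gene. Capitals mark letters that match a searched motif, and the genes were chosen after their values were seen.
Mrps18b, chr17:35916441-35916690, minus strand: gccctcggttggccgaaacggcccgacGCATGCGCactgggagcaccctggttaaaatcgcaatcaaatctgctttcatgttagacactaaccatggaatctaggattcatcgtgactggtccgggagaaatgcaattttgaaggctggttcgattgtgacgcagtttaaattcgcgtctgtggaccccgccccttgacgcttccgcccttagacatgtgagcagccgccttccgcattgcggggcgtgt
Mrpl12, chr11:120484387-120484636, plus strand: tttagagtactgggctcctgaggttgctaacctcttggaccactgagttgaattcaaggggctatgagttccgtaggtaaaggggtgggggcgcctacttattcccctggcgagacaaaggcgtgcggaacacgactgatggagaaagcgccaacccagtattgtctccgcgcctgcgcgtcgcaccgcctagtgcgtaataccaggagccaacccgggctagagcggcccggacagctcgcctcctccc
Mrps26, chr2:130563507-130563756, plus strand: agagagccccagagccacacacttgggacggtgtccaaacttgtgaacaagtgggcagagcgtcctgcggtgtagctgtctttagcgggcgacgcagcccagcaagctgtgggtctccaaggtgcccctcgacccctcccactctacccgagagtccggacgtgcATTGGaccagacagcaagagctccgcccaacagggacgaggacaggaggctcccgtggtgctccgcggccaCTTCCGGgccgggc
Mrpl17, chr7:105811088-105811337, minus strand: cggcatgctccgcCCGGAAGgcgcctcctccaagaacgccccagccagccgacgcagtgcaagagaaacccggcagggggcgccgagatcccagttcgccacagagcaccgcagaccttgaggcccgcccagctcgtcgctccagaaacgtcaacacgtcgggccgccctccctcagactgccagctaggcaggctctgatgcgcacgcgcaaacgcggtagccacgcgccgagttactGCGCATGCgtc
Mrps6, chr16:92058086-92058335, plus strand: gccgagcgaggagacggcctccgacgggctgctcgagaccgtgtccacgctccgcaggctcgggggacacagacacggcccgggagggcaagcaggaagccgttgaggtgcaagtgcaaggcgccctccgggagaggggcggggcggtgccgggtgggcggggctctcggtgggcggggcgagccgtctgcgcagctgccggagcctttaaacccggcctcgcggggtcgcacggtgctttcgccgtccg
In Mrps18b and Mrpl17 the capitals GCATGCGC or its reverse complement are the core of the NRF1 motif, and in Mrpl17 and Mrps26 CCGGAAG or its reverse complement is the core of the ETS motif that GABP binds. ATTGG in Mrps26 is a CCAAT box on the other strand. The stretches of Mrpl12 and Mrps6 hold none of the 6 motifs marked.

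Across the family, 68 of 77 members had a RefSeq window of 300 bases (250 before the start and 50 after), 74 windows in all. Both strands were searched for 9 strings, all reported here, and 6 of them, in which none contains another, were marked after their counts had been seen. CCGGAAG (GABP) stood in 25 of the 74 windows (33.8%), against 17.9% of the 12182 windows of tested protein-coding genes and 8.86% of all 32851 windows. GCATGCGC (NRF1) stood in 8 windows (10.8%), against 5.31% and 2.71%, and AAGATGGC (YY1) in 12 (16.2%), against 4.43% and 2.75%. CACGTG, the E-box that Myc binds, stood in 7 windows (9.46%), against 9.99% and 7.15%. These 7 windows belonged to 5 members, as Mrpl2 had overlapping windows that each held it. CCAAT was in 39.2%, against 38.1% and 37.4%, and TATAAA in 6.76%, against 7.22% and 13.6%. The longer forms, each of which contains a shorter one, gave 3 windows (4.05%) for the NRF1 core preceded by GC, against 2.12% of the tested genes' windows, 6 (8.11%, against 2.14%) for its reverse complement between T and G, and 12 (16.2%, against 8.27%) for CCGGAAGT. Windows listed again at the same start were dropped for the members only, so the shares may not be counted alike. Neither these shares nor their differences were tested. A match describes the letters of a window and is not evidence of binding.

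The remaining large subunit genes with the lowest values were Mrpl38 and Mrpl2. Mrpl38, a mitochondria-specific protein of the central protuberance, was at 36.1, 41.5 and 35.8 CPM with DMSO and at 32.7, 22.6 and 30.1 CPM under urolithin A (log2 fold change -0.42 ± 0.12, adjusted p = 0.0182 in limma). Mrpl2, of the catalytic core, was at 68.9, 71.4 and 65.2 CPM and at 55.7, 40.9 and 63.1 CPM (log2 fold change -0.39 ± 0.13, adjusted p = 0.0308 in limma). In both genes library b was the lowest of the urolithin A libraries. Neither passed without DMSO library b (adjusted p = 0.0761 for Mrpl38 and 0.0904 for Mrpl2 in limma), and Mrpl2 did not pass without DMSO library a (0.0914) or c (0.0509) either. Mrpl3, which lay nearest the median of its subunit, fell from 93.4, 101 and 99.6 CPM to 82.8, 86.1 and 83.6 CPM, a log2 fold change of -0.22 ± 0.07 (adjusted p = 0.0290 in limma). Mrpl3 did not pass without DMSO library b (adjusted p = 0.0973) or c (0.0992), or without urolithin A library a (0.0664) or c (0.0599).

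In the small subunit by name, Mrps30 and Mrps10 followed Mrps18b and Mrps26. Mrps30, a large subunit protein despite its symbol, fell from 61.2, 66.0 and 70.9 CPM to 49.8, 53.5 and 50.0 CPM (log2 fold change -0.37 ± 0.08, adjusted p = 0.00296 in limma). Mrps10, a homologue of a bacterial protein of the small subunit head, fell from 21.9, 20.8 and 22.5 CPM to 17.1, 17.5 and 16.0 CPM, also with a log2 fold change of -0.37. Mrps12, which helps form the decoding centre, had values of 32.8, 34.7 and 35.9 CPM with DMSO and 29.6, 23.8 and 36.0 CPM under urolithin A. The urolithin A values of Mrps12 spread from below to above the DMSO values, and it did not pass (adjusted p = 0.148 in limma). Mrps22, nearest the median of its subunit, was at 50.9, 56.1 and 52.7 CPM and at 43.1, 46.6 and 48.2 CPM. Its groups lay apart, but it did not pass (log2 fold change -0.21 ± 0.08, adjusted p = 0.0564 in limma).

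The other members called lower had log2 fold changes between -0.38 (Mrpl34 and Mrpl4) and -0.21 (Mrpl19). They include Mrpl57, Mrps5, Mrpl21, Mrpl52, Mrpl55, Mrps23, Mrps7, Mrps2, Mrpl40, Mrpl50, Mrps35, Mrpl20, Mrps31, Mrpl16, Mrpl28, Mrpl46, Mrpl30 and Mrpl9. For 41 members every urolithin A library lay below every DMSO library (53.2%, against 22.7% of all genes tested), and for 4 every one lay above (5.19%, against 24.1%). Groups lay apart in either direction for 46.8% of all genes tested. These shares, like the calls, belong to the contrast that chose the family and are given as a description.

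Mrps6 was the only member called higher. It was at 17.5, 18.1 and 17.5 CPM with DMSO and at 23.6, 22.6 and 25.5 CPM under urolithin A, with no overlap. The log2 fold change was 0.43 ± 0.10 (adjusted p = 0.00342 in limma). It did not pass with DMSO b and urolithin A a both left out (log2 fold change 0.44, adjusted p = 0.0564 in limma). In the deposited table the Mrps6 gene overlaps Slc5a3, an inositol transporter gene on the same strand. Slc5a3 rose from 32.2 ± 1.55 to 52.1 ± 6.52 CPM (SD, n = 3; log2 fold change 0.70 ± 0.10, adjusted p = 8.89e-05 in limma). The sources used here do not state how reads in shared sequence were assigned, so the count of Mrps6 is uncertain, and the part of Slc5a3 in it was not tested.

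The members next above 0 did not pass. Mrpl13, a core large subunit protein, was at 76.2, 85.3 and 85.2 CPM with DMSO and at 85.9, 97.2 and 101 CPM under urolithin A, a narrow gap with a log2 fold change of 0.20 ± 0.08 (adjusted p = 0.0807 in limma). Mrpl48, of the central protuberance, was at 23.3, 23.4 and 22.4 CPM and at 25.2, 27.4 and 25.9 CPM (log2 fold change 0.18 ± 0.09, adjusted p = 0.135 in limma). A processed pseudogene, Mrpl48-ps, was listed at 4.79 ± 0.836 and 4.72 ± 0.702 CPM (SD, n = 3), so the count of Mrpl48 is uncertain where reads were shared. Mrps33 and Mrps14 had log2 fold changes of 0.19 and 0.11. Mrpl45, which ties the ribosome to the inner membrane, was at 109, 111 and 106 CPM with DMSO and at 112, 110 and 110 CPM under urolithin A. It was among the most steady members (log2 fold change 0.03 ± 0.07, adjusted p = 0.785 in limma). Mrpl58, a peptidyl-tRNA hydrolase built into the large subunit that can free stalled chains, was at 47.1 ± 1.54 and 49.6 ± 1.82 CPM, and Mrpl44, which has a ribonuclease III fold, at 56.8 ± 2.42 and 51.9 ± 3.62 CPM (SD, n = 3). Neither passed. Mrps36 lay at 1.51 to 2.66 CPM over the 6 libraries.

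**Figure D3:**
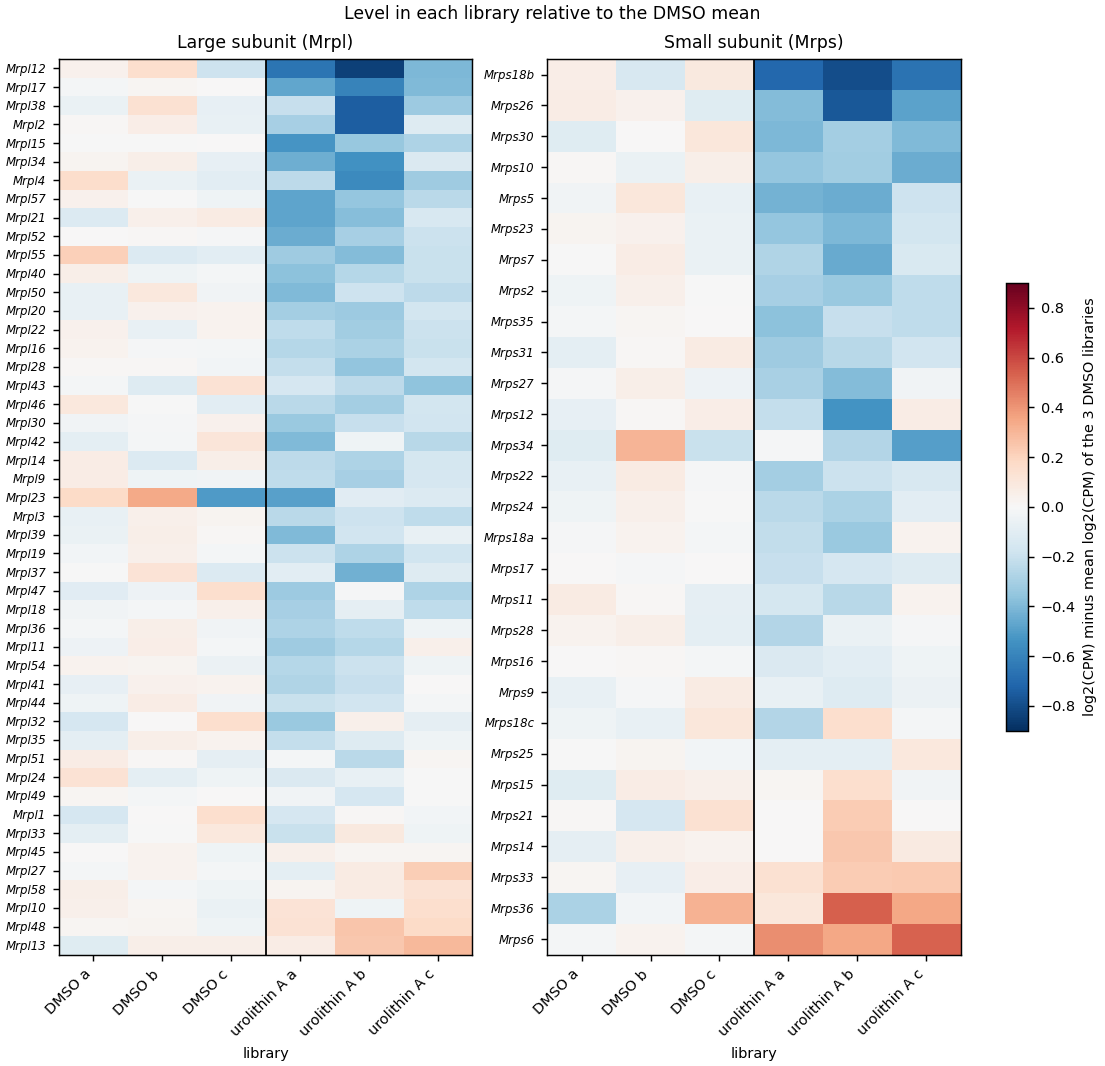
Level of each member in each library as log2(CPM) minus the mean log2(CPM) of the 3 DMSO libraries, blue below and red above, Mrpl genes left and Mrps genes right, in the order of their log2 fold change. The medians of the 3 urolithin A columns are -0.24, -0.24 and -0.12 for a, b and c, and those of the DMSO columns lie between -0.01 and 0.02.

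The 3 urolithin A libraries differed in how far the family stood below the DMSO mean. Relative to the DMSO mean, the median member stood at -0.24 in library a, -0.24 in library b and -0.12 in library c on the log2 scale. Library c held the highest of the 3 values for 52 of the 77 members. Library a was lowest for 39 members and library b for 33. The departure of library b from the other urolithin A libraries moved with base composition. Across the 77 members its log2 ratio to them correlated with the GC content of the longest annotated transcript at a Pearson r of -0.51 (Spearman rho -0.52). Across 9925 genes with a mean of at least 5 CPM r was -0.57 (rho -0.65). Members and genes share these libraries and are not independent replicates. The log2 fold change itself had an r of -0.20 with GC content over the members and of -0.17 over the genes. With a GC correction of each library, added once the data had been seen, 45 members were called lower and 1 higher, at a median of -0.25. In that fit 3321 of all genes were called lower, against 2311 in the main fit. The median of all genes moved to -0.04, and the family stood -0.21 from it, against -0.22 in the main fit.

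Levels per length differed widely between members although the ribosome holds most of these proteins in equal number. Per kilobase of annotated exon, the mean over the 6 libraries ran from 0.775 (Mrpl23) to 78.1 CPM (Mrpl18), with a median of 16.9 and quartiles of 10.2 and 31.0. After Mrpl18 came Mrpl54 at 74.2, Mrpl34 at 63.5 and Mrpl28 at 63.2 CPM per kilobase, and at the low end Mrps36 at 1.65 and Mrps10 at 2.39. Exon length counts every annotated transcript, so genes with long rare transcripts appear lower. Over the members the log2 fold change had an r of -0.10 with the log2 level per kilobase and of -0.04 with exon length.

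The genes of the family lay on 17 chromosomes. For 19 of the 77 members (24.7%) another gene of the table started within 1000 bases upstream on the opposite strand, against 13.2% of 11826 tested protein-coding genes. Of the 19 partner genes 17 were tested, and 5 were called lower and 1 higher. Over all genes tested, 16.0% were called lower and 17.7% higher. Mrps18b, the member with the steepest fall, is paired in this way with Ppp1r10, a phosphatase regulator gene at 64.9 ± 2.20 and 62.2 ± 1.86 CPM (SD, n = 3; log2 fold change -0.06 ± 0.07, adjusted p = 0.572 in limma). Mrps12 faces Sars2, the mitochondrial seryl-tRNA synthetase gene, at 25.8 ± 0.776 and 24.9 ± 4.17 CPM. Of the members, 33 overlap another gene of the table, 10 of the 32 called members among them. Overlap was taken over whole gene spans, introns included, and the share over all genes is not reported here. Among the called members only Mrpl15, Mrpl3, Mrpl46 and Mrps6 overlap a gene on the same strand. The others overlap genes on the opposite strand only. How reads in shared sequence were assigned is not stated, so counts are uncertain where exons overlap.

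Of the 5 genes for ribosomal proteins with other names, 4 fell. Dap3, a GTP-binding protein of the small subunit, fell from 151, 147 and 155 CPM to 118, 125 and 118 CPM (log2 fold change -0.33 ± 0.07, adjusted p = 0.00190 in limma). Ptcd3, a pentatricopeptide protein, fell from 157 ± 12.1 to 129 ± 9.23 CPM and Chchd1 from 81.9 ± 10.4 to 66.3 ± 6.34 CPM (SD, n = 3). Gadd45gip1, at the exit of the large subunit, fell from 26.0 ± 3.21 to 20.2 ± 3.91 CPM with overlapping groups (adjusted p = 0.0479 in limma). Aurkaip1 was at 113 ± 3.52 and 106 ± 5.60 CPM and did not pass (adjusted p = 0.293 in limma). Of the 4 calls, that of Gadd45gip1 was the least stable. Its log2 fold change went from -0.39 to -0.21 without urolithin A library b (adjusted p = 0.124 in limma), and it did not pass without DMSO library a (0.192) or b (0.114), under the stricter filter (0.0507) or without ribosomal RNA genes (0.0516). Ptcd3 did not pass without DMSO library b (adjusted p = 0.0543) or c (0.0791). For Chchd1 the log2 fold change went from -0.30 to -0.20 without DMSO library c (adjusted p = 0.152), and it did not pass without urolithin A library a (0.0959) or c (0.0566). Scaled to total counts alone, none of the 4 passed, with adjusted p from 0.202 to 0.364.

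**Figure D4:**
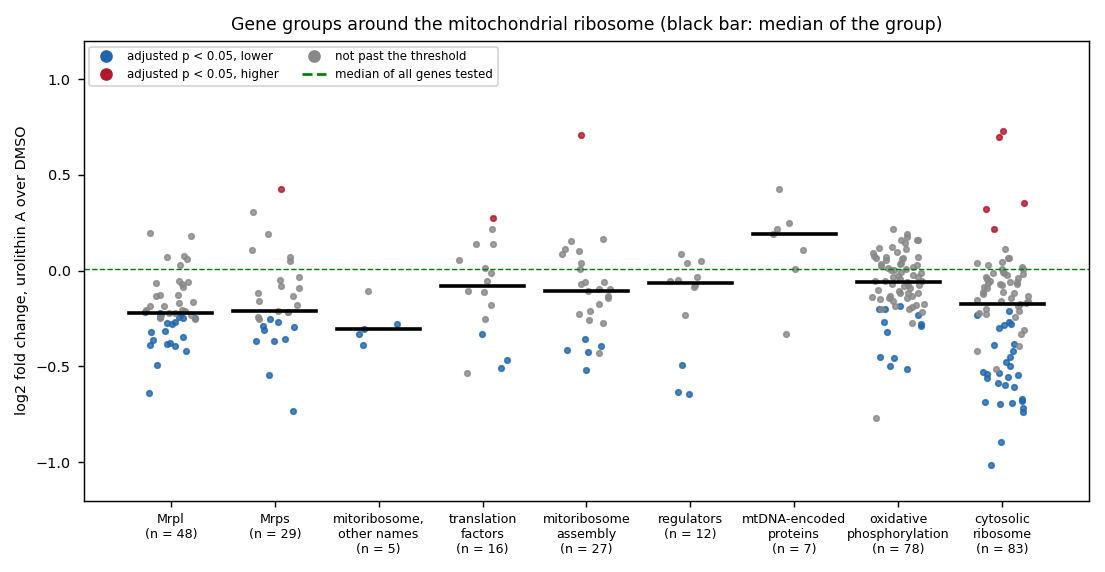
Log2 fold change (y axis) of each gene in 9 groups around mitochondrial translation, with the median of each group as a black bar and the median of all genes tested as a dashed line. The medians are -0.22 for Mrpl, -0.21 for Mrps, -0.08 for translation factors, -0.11 for assembly factors, -0.06 for the nuclear oxidative phosphorylation genes and -0.18 for cytosolic ribosomal proteins.

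The shares of genes called lower among factors that work on the mitochondrial ribosome were near the 16.0% of all genes tested and the 20.3% of those at 5 CPM or more. Their shares called higher were below the 17.7% of all genes tested and the 19.8% of those at 5 CPM or more. Of 16 tested translation factors and messenger RNA stabilisers of mitochondria, 3 fell (18.8%) and 1 rose (6.25%), with a median of -0.08. Tsfm, the exchange factor of the elongation factor Tu, fell from 51.7 ± 3.50 to 37.4 ± 3.91 CPM (adjusted p = 0.00163 in limma), as did Lrpprc, a stabiliser of mitochondrial messenger RNA (log2 fold change -0.33 ± 0.07), and Mrrf, the recycling factor (-0.51 ± 0.11). The initiation factor gene Mtif2 rose by 0.27 ± 0.10 on the log2 scale (adjusted p = 0.0443 in limma). That call was lost when any library but urolithin A library a was left out, with adjusted p from 0.0678 to 0.174 and a log2 fold change of 0.18 without urolithin A library b. Of 27 assembly and RNA modification factors 5 fell (18.5%) and 1 rose (3.70%), with a median of -0.11. Noa1, a GTPase, and Mrm1, a ribosomal RNA methyltransferase, had log2 fold changes of -0.43 ± 0.10 and -0.52 ± 0.12. Nsun4, which methylates the small ribosomal RNA and helps join the subunits, rose from 23.8, 25.8 and 23.5 CPM to 38.9, 37.9 and 42.8 CPM, with no overlap (log2 fold change 0.71 ± 0.09, adjusted p = 3.42e-05 in limma).

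Among 12 tested transcription factors and coactivators known for nuclear genes of mitochondria, 3 fell (beside 16.0% of all genes tested and 20.3% of those at 5 CPM or more called lower) and none rose (0 also at an unadjusted p and in both limma trend fits). Called higher were 17.7% of all genes tested and 19.8% of those at 5 CPM or more. The median log2 fold change of these 12 regulators was -0.06. Nrf1, the nuclear respiratory factor, fell from 122, 125 and 122 CPM to 87.8, 82.4 and 93.3 CPM (log2 fold change -0.49 ± 0.07, adjusted p = 1.37e-04 in limma). Myc, a driver of growth and ribosome production, fell from 217, 217 and 199 CPM to 151, 110 and 150 CPM (log2 fold change -0.64 ± 0.11, adjusted p = 6.35e-04 in limma). The coactivator gene Pprc1 fell by 0.65 ± 0.13 on the log2 scale. Gabpa and Tfam, a GABP subunit and the packaging factor of mitochondrial DNA, had log2 fold changes of -0.09 and -0.05 and did not pass.

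Mitochondrial transcripts gave no call. Of the 13 protein-coding genes of the mitochondrial genome 7 were in the table and none passed, with log2 fold changes from -0.33 to 0.43 and a median standard error of 0.32. At an unadjusted p under 0.05 the limma voom count was 0 as well, and so were the calls of both limma trend fits. Their summed level was 2935, 2877 and 3727 CPM with DMSO and 2783, 4790 and 2848 CPM under urolithin A, so 1 library, b, stood far above the rest. The other 6 genes were not analysed here. The ribosomal RNA genes mt-Rnr1 and mt-Rnr2 spread from 250 to 2284 CPM and from 4099 to 9558 CPM over the libraries, and a change of the size seen in the proteins' genes was not detectable in them. The lists of nuclear oxidative phosphorylation and cytosolic ribosomal protein genes were written after the values of the family had been seen. The 78 nuclear oxidative phosphorylation genes, whose products join those made on this ribosome, had 12 lower and none higher, at a median of -0.06. The share called lower (15.4%) was near the 16.0% of all genes tested and under the 20.3% of those at 5 CPM or more. The absence of genes called higher (0 also at an unadjusted p and in both limma trend fits) was not near the background. Of all genes tested 17.7% were called higher, and 19.8% of those at 5 CPM or more. Uqcrq, of complex III, fell from 81.5 ± 1.34 to 57.5 ± 5.22 CPM (SD, n = 3). The 83 cytosolic ribosomal protein genes and close relatives had 30 lower (36.1%) and 5 higher (6.02%), at a median of -0.18, and their many pseudogenes leave their counts uncertain. Among them Rpl3 fell by 0.72 ± 0.08 and Rpl15 rose by 0.73 ± 0.08 on the log2 scale.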

How the data were processed

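RNA of 6 libraries was sequenced, 3 per group, and the authors deposited whole-number counts per gene written with a decimal comma. The labels' protocols name a stranded kit; the submitters' processing notes name STAR 2.5.2a and mm10, but the deposited coordinates are not those of mm10, so their build is not known from these sources. The deposited files are identical, so 1 was used, and 3 columns of no listed sample were left out.

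Genes with at least 10 counts in a median-size library in 3 libraries and 15 in all were kept (14444). Libraries were scaled by the trimmed mean of M values (30% of M and 5% of A trimmed). The fit was limma 3.58.1 voom in R 4.3.3 (offset 0.5, robust, group only) with Benjamini-Hochberg adjustment over all genes and a threshold of 0.05, tested on simulated data. As the origin of the libraries is not stated, p-values reflect only how these samples vary, possibly for technical reasons. Exon lengths and GC content came from GENCODE M21 by gene ID, promoters from RefSeq GRCm38.p6.

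The members, gene lists and alternatives were chosen with earlier results of these data known. Named were, per subunit, the 4 members with the lowest and the 3 with the highest fold change at 5 CPM or more, the member nearest the median, a list of members of known role, and up to 3 genes per other list. Mrpl15, Mrrf, Pprc1, Gabpa, Tfam, the overlapping and neighbouring genes and those named to spell out a count were added after their values were seen. Alternatives changed scaling, filter, model, block and libraries.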

Additional observations from a re-analysis of the deposited data

How the results depend on the processing

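No member changed direction past the threshold in any of 17 alternative fits, and 4 of the 32 called members (Mrps18b, Mrpl12, Mrps26 and Mrpl17) were called in all of them. Another 19 members were called in at least 1 alternative. Scaling to total counts left 4 members lower (2 large, 2 small subunit) and 932 genes lower in all. The medians of the family and of the large subunit were then -0.13 and that of all genes 0.10. The distance of the family from all genes was -0.22 in this and in the main fit. A change of scaling shifts all genes by nearly the same amount, so this distance had to stay and supports nothing. With total counts less ribosomal RNA genes, 2 members were higher, 1 of them of the large subunit. With DMSO b and urolithin A a both left out, 6 members were lower (4 large, 2 small) and 0 higher (0 small), with 1244 genes lower and 1429 higher in all and a distance of -0.17. Leaving out 1 library at a time gave 13 to 36 members lower and 1 to 2 higher, 8 to 23 large and 5 to 14 small subunit members lower, 0 to 1 large and 1 to 1 small subunit members higher, and 1683 to 2508 genes lower and 1800 to 2763 higher. The medians then ran from -0.26 to -0.19 for the family, -0.26 to -0.21 for the large and -0.25 to -0.17 for the small subunit, and the distance from all genes from -0.27 to -0.19. Without DMSO library a 12 large subunit members were lower, and 11 without DMSO library c or urolithin A library a. The GC correction called 45 members lower and 43.5% of all 5874 calls higher, against 52.6%. The causes were not tested.

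Deviations of same-lettered libraries correlated at 0.0749, -0.144 and -0.0827, and those of differently lettered libraries at -0.265 to 0.294. With 3 libraries per group these values cannot settle whether the letters pair the samples, and the labels name no pairing. With the letter as a replicate block 25 members were lower and 1 higher, and 4496 genes were called, against 4871. Counting error is smallest for the deeper libraries, and the 2 members under 5 CPM were not resolved at this depth.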

Other observations

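The letters AAGATGGC (the YY1 core) stood in 1 of 28 promoter windows of members called lower (3.57%) and in 11 of 46 windows of the other members (23.9%). This split was noticed after the values had been seen and was not tested. It is a split of calls, not of direction. All members with these letters had log2 fold changes below 0, from -0.29 (Mrps7) to -0.06 (Mrpl49). Several of those not called in the main fit were called lower in at least 1 alternative fit. Among them were Mrps27 (-0.25), Mrps12 (-0.24) and Mrpl42 (-0.23). The shares for CCGGAAG were 32.1% and 34.8%, and for GCATGCGC 10.7% and 10.9%. For CCAAT they were 39.3% and 39.1%, and for TATAAA 7.14% and 6.52%. Other strings were also unequal. CACGTG stood at 14.3% and 6.52%, with the overlapping windows of Mrpl2 in the first share, and CCGGAAGT at 10.7% and 19.6%. The longer NRF1 forms were at 3.57% and 4.35% (preceded by GC) and at 10.7% and 6.52% (between T and G).

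Mrpl49 starts close to Fau, a cytosolic ribosomal protein gene on the opposite strand. Mrpl49 was at 70.9, 69.4 and 70.1 CPM with DMSO and at 68.5, 63.2 and 69.9 CPM under treatment, a log2 difference of -0.06, while Fau had one of -0.67 (adjusted p = 7.36e-04 in limma). The neighbours Mrpl41 and Pnpla7 had log2 fold changes of -0.17 and 0.50. The differences within these pairs were not tested.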
